A study of Arabidopsis thaliana with 6 samples.

Results

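PYK10, NAI2 and NAI1 are 3 genes of the ER body system of Arabidopsis thaliana, out of 13350 genes that a probe set of the array names. They were taken by name, and were chosen from earlier results of the same 6 arrays, namely their intensities, their genotype differences and their spread between arrays. Those values are therefore descriptions and carry no test here. The arrays were Affymetrix arrays of total RNA from whole 15-day-old seedlings of the Col-0 ecotype, with 3 gapcp1gapcp2 double mutant and 3 wild type arrays titled as biological replicates. All seedlings of both genotypes had been given 0.75 µM abscisic acid (ABA), a hormone of stress and seed dormancy, for 8 days, so the arrays hold no untreated plants. GAPCP1 and GAPCP2 encode the plastidial glyceraldehyde-3-phosphate dehydrogenases of glycolysis. The labels do not name the mutant alleles, and the probe sets of the 2 targeted genes are unnamed, so the genotype labels were not checked by their transcripts.

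ER bodies are spindle-shaped compartments that bud from the endoplasmic reticulum in the order Brassicales, abundant in the epidermis of seedlings and in roots. They store beta-glucosidases away from their substrates, which meet when a herbivore or pathogen breaks the cell. PYK10, also named BGLU23, is the main beta-glucosidase of root and seedling ER bodies and can cleave indole glucosinolates. NAI2 is an ER body protein needed for the compartments to form. NAI1 is a bHLH transcription factor needed for the expression of PYK10, NAI2 and several lectin genes of the system, and plants that lack it have no constitutive ER bodies. Jacalin-related lectins join PYK10 in large complexes when cells are broken.

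Each gene had 1 probe set naming it alone. These were 259009_at for PYK10 (AT3G09260), 257798_at for NAI2 (AT3G15950) and 266456_at for NAI1 (AT2G22770). All 3 carry the plain suffix that the array's maker gives to probe sets designed for a single transcript. In the RefSeq table of the TAIR10.1 assembly PYK10 and NAI2 lie on chromosome 3 and NAI1 lies on chromosome 2. The deposited values are linear probe-set intensities, whose array medians were 105.84 to 112.98, and between 395 and 785 of the 22746 values on an array were below 0. For the differences, values below 0 were set to 0 and all were transformed as log2(intensity + 16). Probe sets differ in how strongly they respond to their transcript, so intensities order arrays for 1 gene and not the amounts of different transcripts.

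The transcript of the stored enzyme gave one of the brightest signals on every array. PYK10 had intensities of 4073, 5514 and 4890 on mutant arrays 1, 2 and 3, against 6109, 4383 and 4649 on wild type arrays 1, 2 and 3. Its values stood between percentiles 99.1 and 99.68 of all probe sets of their array. The highest array was wild type 1 and the lowest was mutant 1, and the genotypes overlapped.

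NAI2, the structural gene, was bright as well. It had 827, 1278 and 1102 on mutant arrays 1, 2 and 3, against 1161, 920 and 995 on wild type arrays 1, 2 and 3, at percentiles from 90.75 to 94.47. Mutant 2 was the highest and mutant 1 the lowest, so the mutant arrays enclosed the wild type arrays.

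NAI1, the regulator, gave a signal in the middle of the range of the array. It had 153.9, 165.8 and 158.2 on mutant arrays 1, 2 and 3, against 220.3, 208.0 and 200.2 on wild type arrays 1, 2 and 3, at percentiles from 58.14 to 66.57. Every mutant array was below every wild type array, with 165.8 as the highest mutant value and 200.2 as the lowest wild type value. The ratio of the highest to the lowest array was alike in the 3 genes, at 1.5 for PYK10, 1.5 for NAI2 and 1.4 for NAI1.

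**Figure D1:**
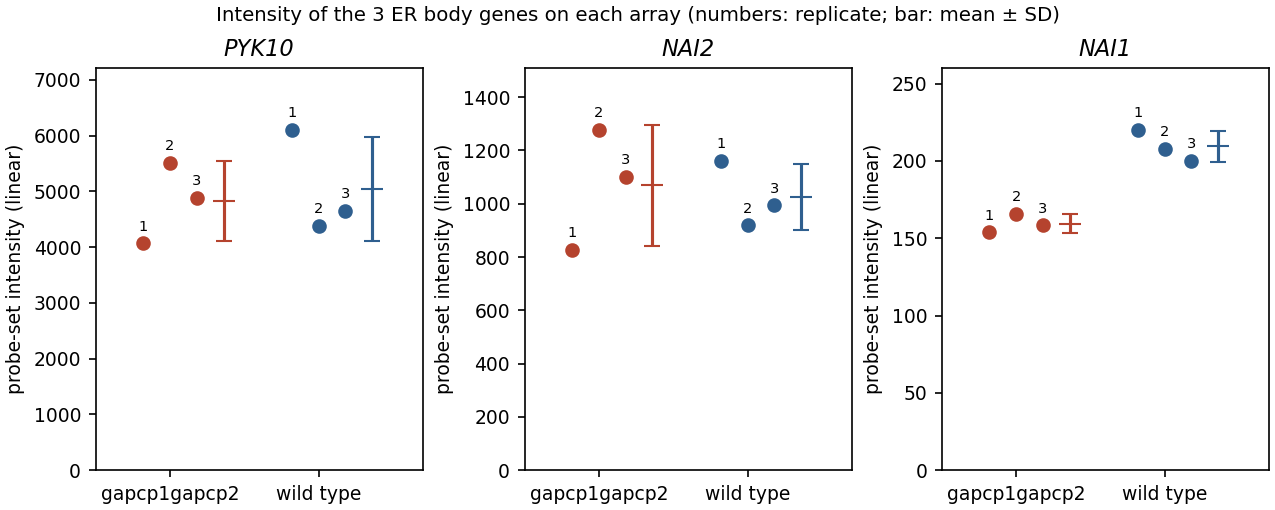
Probe-set intensity (linear axis from 0) of PYK10, NAI2 and NAI1 on the 3 gapcp1gapcp2 and 3 wild type arrays; points are arrays with their replicate number, and the bars are the mean ± SD of each genotype. The genotypes overlap for PYK10 and NAI2, while the NAI1 values of the mutant (153.9 to 165.8) lie below those of the wild type (200.2 to 220.3).

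The comparison of the genotypes asks which transcripts differ in the double mutant when both are grown with ABA. NAI1, chosen for it, had the largest difference of the 3 genes, and whether it differed from the other 2 in this was not tested. NAI1 averaged 159.3 ± 6.06 in the mutant and 209.5 ± 10.1 in the wild type (SD, n = 3 each), a ratio of 0.761 and a log2 difference of -0.36 ± 0.10 (SE; 95% interval -0.59 to -0.14). PYK10 averaged 4826 ± 722 in the mutant and 5047 ± 929 in the wild type (SD, n = 3 each), a log2 difference of -0.060 ± 0.14 (SE; 95% interval -0.39 to 0.27). NAI2 averaged 1069 ± 228 in the mutant and 1025 ± 123 in the wild type (SD, n = 3 each), a log2 difference of 0.044 ± 0.16 (SE; 95% interval -0.32 to 0.41). The intervals of PYK10 and NAI2 overlapped that of NAI1, and the arrays do not fix the direction of PYK10 or NAI2. Leaving out 1 array turned the sign of both, with PYK10 at 0.056 without mutant 1 and 0.085 without wild type 1, and NAI2 at -0.094 without mutant 2 and -0.029 without wild type 2.

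NAI1 had been noticed for this difference, so the separation of its genotypes supports nothing by itself. Of the 15922 probe sets tested, 495 (3.11%) had all mutant arrays below all wild type arrays, and 999 (6.27%) had no overlap in either direction. A log2 difference at least as far below 0 as that of NAI1 was found in 182 probe sets, and 63 of these also had no overlap. With limma, 0% of the probe sets passed an adjusted p of 0.05 as higher in the mutant and 0% as lower. Of the 15922, 272 had an unadjusted p under 0.05, fewer than the share of 0.05 expected when no probe set differs.

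**Figure D2:**
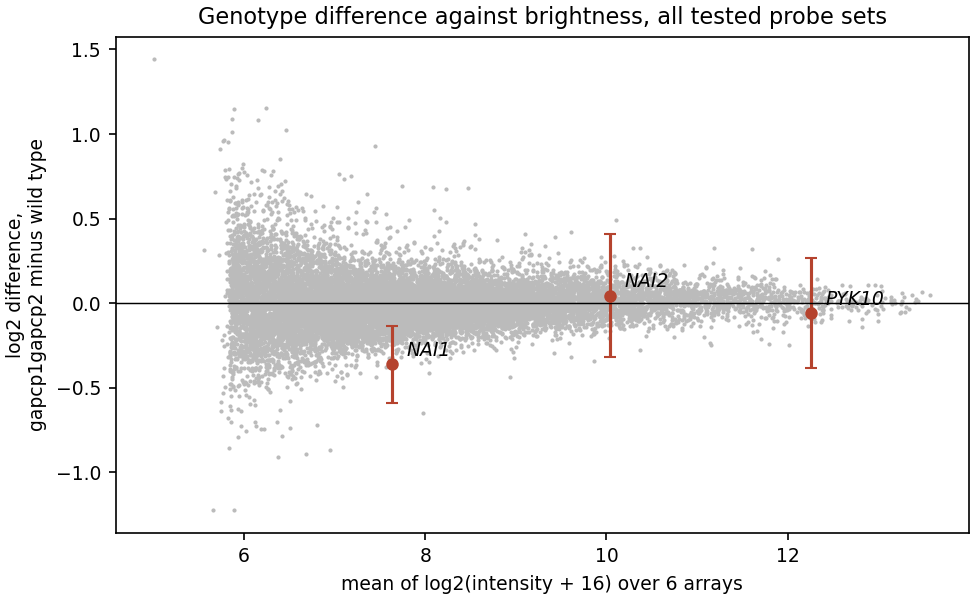
Log2 difference (gapcp1gapcp2 minus wild type) against the mean of log2(intensity + 16) over the 6 arrays, for the 15922 tested probe sets (grey) and the 3 ER body genes (red, with the 95% interval). NAI1, at -0.36, lies in the lower part of the grey cloud at its brightness, and PYK10 and NAI2 lie near 0 at the bright end.

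The 3 genes differed in where their spread lay. For NAI1, 93.7% of the variance of the log2 values over the 6 arrays lay between the genotypes, for PYK10 2.35% and for NAI2 1.13%. Within a genotype NAI1 had an SD of 0.058 on the log2 scale, at percentile 4.25 of the tested probe sets, so its replicates lay close together. PYK10 and NAI2 had within-genotype SDs of 0.24 and 0.25, at percentiles 74.3 and 77.5. The coefficient of variation of the linear intensities was also lowest for NAI1 in both genotypes. It was 3.80% in the mutant and 4.83% in the wild type for NAI1. For PYK10 it was 15.0% in the mutant and 18.4% in the wild type, and for NAI2 21.3% in the mutant and 12.0% in the wild type.

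PYK10 and NAI2 ran together over the arrays. In the mutant both were highest in replicate 2, then 3, then 1, and in the wild type both were highest in replicate 1, then 3, then 2. Relative to the mean of its 6 log2 values, PYK10 stood at -0.26, 0.17 and 0.00 in mutants 1, 2 and 3 and at 0.32, -0.16 and -0.07 in wild types 1, 2 and 3. NAI2 stood at -0.32, 0.30 and 0.09 in the mutants and at 0.16, -0.17 and -0.06 in the wild types. The largest gap between the 2 genes was in wild type 1, where PYK10 was further above its mean than NAI2. As a description, over the same 6 arrays that chose both genes, Pearson's r was 0.894 and Spearman's rho 0.943. Without mutant 1 and wild type 1, the 2 arrays farthest from the median of PYK10, r was 0.996.

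NAI1 followed this pattern in part. Its mutant arrays had the order of its targets, with replicate 2 highest, then 3, then 1. Its wild type arrays had replicate 1 highest, as in PYK10 and NAI2, followed by 2 and then 3. The steps were small, from -0.045 to 0.053 around the mutant mean on the log2 scale and from -0.060 to 0.068 around the wild type mean. PYK10 moved from -0.23 to 0.20 around its mutant mean and from -0.19 to 0.29 around its wild type mean. The values of NAI1 formed 2 separate clusters, 1 for each genotype, of 3 arrays each, so the r over all arrays mixes the genotype step with the spread within genotypes. It is given only as a description, and it depended on the centring. Over the 6 arrays r was 0.369 with PYK10 and 0.093 with NAI2. With each genotype centred on its own mean r was 0.889 with PYK10 and 0.785 with NAI2. Without mutant 1 and wild type 1, also the 2 arrays farthest from the median of NAI1, and with no centring, r was -0.773 with PYK10 and -0.828 with NAI2.

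Setting each target against its regulator within an array restates these values on 1 scale. The genotype difference of NAI1, for which it was chosen, enters both results by subtraction, so they add no separate support. The log2 value of PYK10 minus that of NAI1, centred on the 6 arrays, was -0.036, 0.30 and 0.19 in mutants 1, 2 and 3, against 0.070, -0.33 and -0.19 in wild types 1, 2 and 3. Its mean was 0.15 ± 0.17 in the mutant and -0.15 ± 0.20 in the wild type (SD, n = 3 each). The groups overlapped, since wild type 1 was above mutant 1. For NAI2 minus NAI1 the values were -0.094, 0.43 and 0.28 in the mutants, against -0.089, -0.34 and -0.18 in the wild types. Here too wild type 1 was above mutant 1, by a small margin. PYK10 minus NAI2 differed less, with 0.057, -0.13 and -0.088 in the mutants against 0.16, 0.012 and -0.014 in the wild types.

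**Figure D3:**
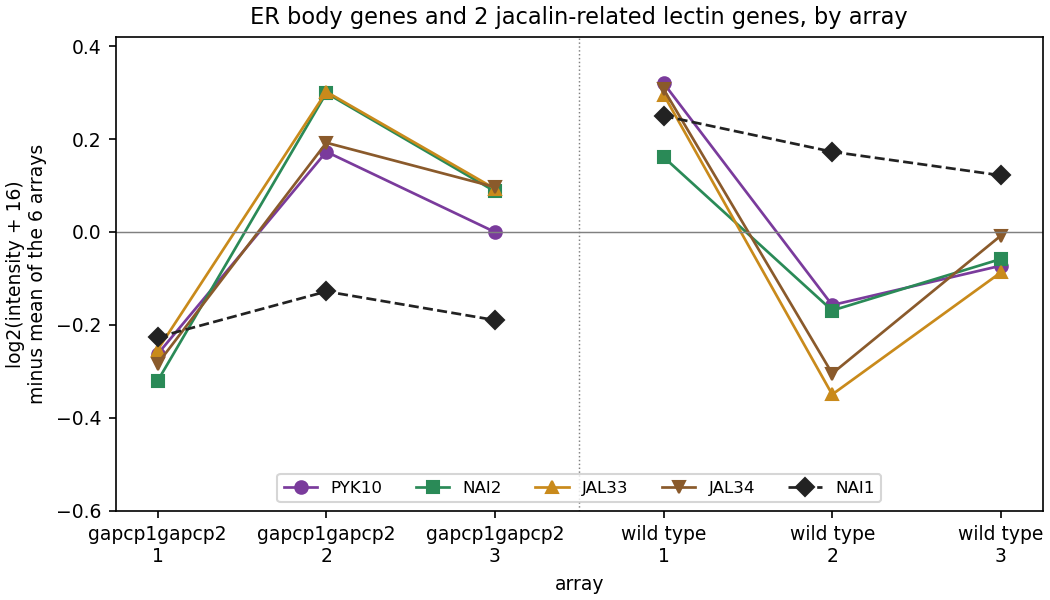
Log2(intensity + 16) minus its mean over the 6 arrays, for PYK10, NAI2, the lectin genes JAL33 and JAL34, and the regulator NAI1 (dashed), by array; lines join arrays of 1 genotype only to guide the eye. The 4 solid profiles are low in mutant 1 and wild type 2 and high in mutant 2 and wild type 1, while NAI1 separates the genotypes.

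Other genes of the system were taken from a list of 25 loci for beta-glucosidases, ER body proteins, and the lectins and lipase-like proteins of the PYK10 complex. Of these, 12 had a probe set naming them and 8 passed the filter that left out the lowest 30% of probe sets. Of the 8 tested with limma, 0 passed in either direction, as did 0% of all probe sets. Their log2 differences ran from -0.18 to 0.23 with a median of 0.018, beside a median of -0.0031 over all 15922, and 5 lay above 0 and 3 below. Of the 13 loci without a named probe set, not analysed here, BGLU18, BGLU21, BGLU22, TSA1, MEB1, MEB2 and PBP1 are best known as ER body or PYK10 complex genes.

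The jacalin-related lectin genes JAL33 and JAL34 had the pattern of PYK10 and NAI2. JAL33 had intensities of 1530, 2255 and 1949 in mutants 1, 2 and 3, against 2246, 1430 and 1719 in wild types 1, 2 and 3. JAL34, its direct neighbour among the protein-coding genes of chromosome 3, had 1843, 2568 and 2403 in the mutants, against 2783, 1815 and 2234 in the wild types. Within each genotype both had the order of arrays of PYK10 and NAI2. Over the 6 arrays PYK10 had r = 0.925 with JAL33 and 0.944 with JAL34 (exact permutation p = 0.00972 and 0.00833, 0.173 adjusted over 48 pairs for both). The rho values were 0.886 and 0.943 (exact permutation p = 0.0333 and 0.0167, 0.267 adjusted for both). NAI2 had r = 0.930 with JAL33 and 0.908 with JAL34 (exact permutation p = 0.0111 and 0.0181, again 0.173 adjusted), and rho = 0.943 and 0.886 (exact permutation p = 0.0167 and 0.0333, 0.267 adjusted). Without mutant 1 and wild type 1, the r of PYK10 was 0.970 with JAL33 and 0.898 with JAL34. Without mutants 1 and 2, the 2 arrays farthest from the median of NAI2, the r of NAI2 was 0.990 with JAL33 and 0.970 with JAL34. None of the 48 pairs computed passed after adjustment. The 48 include the pairs among PYK10, NAI2 and NAI1, which were chosen from these same arrays, so those pairs carry no test. For r, 6 of the 48 had an unadjusted p under 0.05. Of these 6, 1 was of PYK10 with NAI2. Another 1 was of NAI1 with AT4G37850, which lay below the filter (r = -0.845, exact permutation p = 0.0292, adjusted 0.233). With 6 arrays no p can be below 0.00139, so a single pair could not have passed over 48. The p-values also take no account of a pattern shared by much of the array. Of the other tested probe sets, 729 (4.58%) had an r of at least 0.9 with PYK10 and 595 (3.74%) with NAI2. They therefore do not measure a link of the lectin genes to PYK10 or NAI2.

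The other 2 measured lectin genes followed PYK10 less closely or not at all, a difference that was not tested. JAL22 had 1377, 1494 and 1570 in mutants 1, 2 and 3, against 1709, 1372 and 1578 in wild types 1, 2 and 3, and r with PYK10 was 0.803 (exact permutation p = 0.0583, adjusted 0.400; rho 0.714, p = 0.136, adjusted 0.544). Leaving out the 2 arrays farthest from the median of PYK10 brought that r to 0.354, so it rested on them. JAL23, separated from JAL22 by 1 protein-coding gene, was dim, at 71.0 to 79.5 in the mutant and 77.7 to 84.2 in the wild type, and r with PYK10 was -0.012 (exact permutation p = 0.981, adjusted 0.988; rho -0.029, p = 1.00, adjusted 1.00). The genotype differences of the 4 lectin genes were 0.094 ± 0.18 for JAL33, 0.0035 ± 0.17 for JAL34, -0.065 ± 0.10 for JAL22 and -0.10 ± 0.13 for JAL23 on the log2 scale (SE). Those of JAL33, JAL34 and JAL22 turned sign with 1 array left out, and JAL34 also with quantile normalization.

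Among the relatives of PYK10, BGLU25 was the only 1 of the 4 beta-glucosidase genes with a named probe set that passed the filter. It had 294.8, 263.2 and 293.1 in mutants 1, 2 and 3, against 246.9, 267.5 and 206.6 in wild types 1, 2 and 3. Mutant 2 lay below wild type 2, so the groups overlapped. Its log2 difference was 0.23 ± 0.12 (SE; limma adjusted p = 1.00), and its arrays did not follow PYK10 (r = -0.251, exact permutation p = 0.635, adjusted 0.870; rho -0.543, p = 0.297, adjusted 0.732). BGLU19, ATA27 (BGLU20) and BGLU24 lay below the filter, with means of 38.7, 26.1 and 20.5 in the mutant and 38.2, 17.0 and 25.5 in the wild type.

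The other listed loci carry no gene name in the tables used here. AT4G15545 was bright, at 2927 to 3062 in the mutant and 2704 to 3287 in the wild type, and varied little between arrays. AT1G16520 had 93.7 to 134.0 in the mutant and 124.5 to 144.6 in the wild type, a log2 difference of -0.18 ± 0.15 (SE). AT1G56080 had 68.1 to 108.9 in the mutant and 71.5 to 88.4 in the wild type, a log2 difference of 0.11 ± 0.18 (SE). AT1G54020 lay below the filter, at 4.39 to 23.5 in the mutant and -2.24 to 12.5 in the wild type.

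A list of 3 loci kept beside NAI1, 2 of them next to it in the genome, lay below the filter on these arrays. AT2G22760, the protein-coding locus next to NAI1, had 29.5 to 40.2 in the mutant and 15.3 to 35.9 in the wild type. AT2G22750, the next one along, had 2.69 to 28.1 in the mutant and 1.53 to 52.6 in the wild type. AT4G37850, listed with them, had 8.76 to 30.4 in the mutant and 0.47 to 11.6 in the wild type. Their genotype differences were not tested, and their ranges overlapped between the genotypes. Their correlations with PYK10, NAI2 and NAI1 were among the 48 pairs above.

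**Figure D4:**
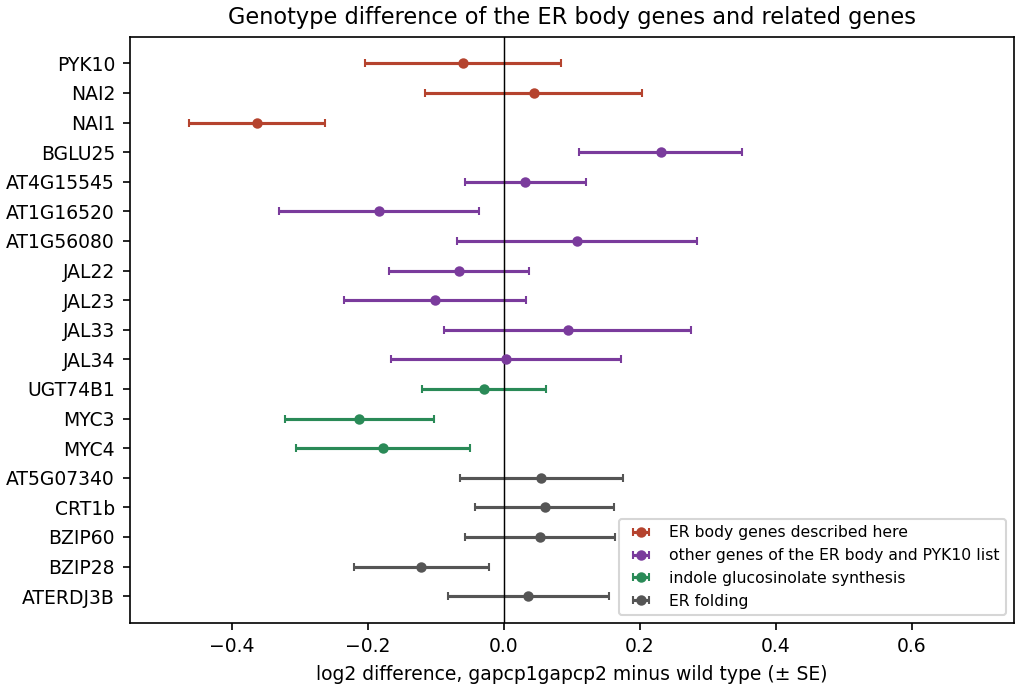
Log2 difference (gapcp1gapcp2 minus wild type) ± SE for PYK10, NAI2 and NAI1 and for the tested genes of the ER body and PYK10 list, of indole glucosinolate synthesis and of ER folding. NAI1 is the lowest point, at -0.36, and the tested genes of the 3 lists lie between -0.21 and 0.23.

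Genes that act around the ER body were few among the named probe sets. Indole glucosinolates are substrates of PYK10, and of 22 loci for their synthesis and regulation 3 were tested, of which 0 passed. MYC3 and MYC4 encode bHLH transcription factors that act in jasmonate responses and in glucosinolate synthesis. MYC3 had intensities of 375.4, 312.3 and 388.2 in mutants 1, 2 and 3, against 432.6, 406.2 and 410.5 in wild types 1, 2 and 3. Its groups did not overlap, as for 3.11% of all tested probe sets in this direction, and its log2 difference of -0.21 ± 0.11 (SE) had a limma adjusted p of 1.00. MYC4 had a log2 difference of -0.18 ± 0.13 (SE), with overlapping groups.

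Of 16 loci for protein folding in the ER, 5 were tested and 0 passed, with a median log2 difference of 0.053. BZIP28, a membrane-bound sensor of unfolded proteins, had -0.12 ± 0.10 (SE) and CRT1b, a calreticulin gene, 0.060 ± 0.10 (SE). Of 9 loci for the conjugation and breakdown of ABA, 3 were tested and 0 passed. BGLU33, a beta-glucosidase gene of ABA glucose ester hydrolysis, had -0.081 ± 0.18 and UGT71C5, of ABA glucosylation, 0.017 ± 0.13 (SE). The lists for other myrosinases and specifier proteins (14 loci), for jasmonate synthesis and wounding (14 loci) and for ER export (2 loci) had no named probe set and were not analysed here.

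Whole seedlings hold roots and shoots in unknown proportion, and in bulk RNA fewer cells of a type and less transcript per cell cannot be told apart. Of 21 root marker loci 4 were measured, and of 12 shoot marker loci 5. On any array, 0 of the 4 root genes and 0 of the 5 shoot genes were at or below 0. That does not show their presence, since only 1.74% to 3.45% of all values on an array were below 0. EXPA7 was at 37.9 on mutant 1, below the mean intensity of 42.4 at which the filter cut. The mean log2 deviation of the 4 root genes had the order of PYK10 and NAI2 within each genotype, while the single genes differed in theirs. It was -0.33, 0.33 and 0.07 in mutants 1, 2 and 3 and 0.28, -0.34 and -0.01 in wild types 1, 2 and 3. The summed intensity of the 4 root genes was 2072, 2492 and 2502 in mutants 1, 2 and 3. In wild types 1, 2 and 3 it was 2413, 1780 and 2245. The sum was thus highest in mutant 3 and lowest in wild type 2, unlike PYK10. EXPA7 and EXPA18, expansin genes of root hairs, varied most of the 4, with highest over lowest intensities of 2.66 and 3.88. In the mutant both had the order of PYK10, and in the wild type both had replicate 1 highest, with replicates 2 and 3 at 47.3 and 44.5 for EXPA7 and at 89.1 and 159.7 for EXPA18. AT1G62500 and AT1G09750, also on the root list, had ratios of 1.51 and 1.40 and log2 differences of 0.22 ± 0.12 and 0.14 ± 0.12 (SE). AT1G62500 had 340.2, 339.6 and 391.5 in mutants 1, 2 and 3, against 325.8, 258.5 and 330.9 in wild types 1, 2 and 3. It did not have the order of PYK10. All its mutant arrays were above all its wild type arrays, as in 504 of the 15922 tested probe sets. AT1G09750 was highest in mutant 3 among the mutants, against mutant 2 for PYK10, and had the order of PYK10 in the wild type. The 5 shoot genes summed to 30530 to 32760 in the mutant and 30730 to 33220 in the wild type, and their mean log2 deviation stayed between -0.047 and 0.053. PSAE-1, of photosystem I, had a log2 difference of -0.066 ± 0.063 and FMA, of guard cells, -0.072 ± 0.14 (SE). The part of the root share in the values of PYK10 and NAI2 was not tested.

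The pattern of PYK10 and NAI2 was shared by much of the array. A first principal component of the tested probe sets took up 43.03% of the between-array variance. The arrays' positions on it had a Pearson's r of 0.918 with PYK10, 0.960 with NAI2 and 0.156 with NAI1, given as descriptions since these genes are among those that form it. Of the 15921 other tested probe sets, 729 (4.58%) had an r of at least 0.9 with PYK10 over the 6 arrays, 595 (3.74%) with NAI2 and 54 (0.339%) with NAI1. NAI2 was in place 786 among the probe sets most like PYK10, JAL34 in place 287 and JAL33 in place 461. JAL33 was in place 331 among those most like NAI2. High r values between these genes were therefore common on these arrays.

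The 5 named genes most like each of the 3, by Pearson's r of log2 values over the 6 arrays, carried few names. For PYK10 they were AT3G53990, AT1G28680, AT5G26280, AT1G54320 and AT1G48330, with r from 0.989 to 0.996. AT3G53990 had intensities of 1008, 1493 and 1286 in mutants 1, 2 and 3, against 1707, 1119 and 1252 in wild types 1, 2 and 3. For NAI2 they were AT4G38540, AT4G36610, AT5G50350, AT5G65300 and AT1G61360, with r from 0.988 to 0.993. AT4G36610 had 161.8, 300.7 and 258.6 in the mutants, against 274.1, 193.3 and 204.5 in the wild types. For NAI1 they were IQD19, CHR18, AT1G48950, AT3G59670 and AT5G11900, with r from 0.946 to 0.958. IQD19, an IQ-domain gene, had 26.8, 29.0 and 32.9 in the mutants, against 61.6, 52.5 and 60.3 in the wild types. The filter cut at a mean intensity of 42.4, so this dim gene passed it only through the wild type arrays. In all 5 genes most like NAI1 the genotypes did not overlap, and in 0 of the 5 most like PYK10 and 0 of the 5 most like NAI2. Over all tested probe sets 6.27% had no overlap in either direction. Since r was taken over both genotypes, a gene like NAI1 had to separate them.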

How the data were processed

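The authors deposited 1 linear intensity per probe set and array. Per the submitters' processing notes GCOS, the Affymetrix software, was used, and nothing used here states its version, summarisation or scaling. A free-text label that speaks of embryos goes against the source, tissue and protocol labels, which name seedlings, and was not used. Values below 0 (3919 over the 6 arrays) show that something had been subtracted. Of 22746 probe sets, 13513 named 1 gene, 503 several and 8730 none in the platform's probe table, and 13436 matched a RefSeq gene (TAIR10.1). The files name no genome build, so no coordinates are given.

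Intensities were floored at 0, transformed as log2(value + 16) and not scaled further. The lowest 30% of probe sets by mean were left out. The pseudocount shrinks the differences of dim genes. Genotypes were compared with limma 3.58.1, run under R 4.3.3 (a two-sided moderated test with an intensity trend, Benjamini-Hochberg over all 15922 tested). A gene with several probe sets was read from the brightest. Correlations used exact two-sided permutation over all 720 pairings, which can give no p below 0.00139, adjusted over 48 pairs of a member with another member or a measured gene of the ER body and bHLH lists.

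The members, the gene lists and the rules were chosen with earlier results of these data known. Besides the members, the named genes are the measured genes of the ER body list and of the list of 3 loci kept beside NAI1, the 2 genes with the smallest p of each other list, and the 5 with the highest r with each member (passing the filter, SD of at least 0.1). EXPA7, EXPA18, and UGT74B1 and further genes in a plot, are outside this rule. Nothing says whether the replicates came from separate cultures, so the spread may be partly technical, and the number of arrays limits the precision. No sequence is shown because none was in the material used here. Figures were drawn with matplotlib 3.10.9.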

Additional observations from a re-analysis of the deposited data

How the results depend on the processing

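Under all 17 alternatives limma placed 0 probe sets past the threshold in either direction and 0 genes of the lists. The count of probe sets with an unadjusted p under 0.05, 272 in the report, was 619 when nothing was filtered and 117 when the filter took the lowest 50% (both change how many are tested), and it was 136 with the replicate number as a block. The block could not change the members' log2 differences, since each replicate number occurs once in each genotype. Arrays of the same number did not deviate together (correlations of -0.58, -0.48 and -0.13), so the numbers were not taken as pairs. Between mutant and wild type arrays of unlike number the correlations ran from -0.12 (mutant 3 with wild type 2) to 0.59 (mutant 1 with wild type 2). With 1 array left out the unadjusted count ranged from 253 to 386. The log2 difference of NAI1 was -0.29 with a pseudocount of 64, which shrinks dim genes by construction, and -0.39 to -0.33 with 1 array left out. That of PYK10 ranged from -0.16 to 0.085 and that of NAI2 from -0.094 to 0.22 with 1 array left out.

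The correlation of PYK10 with NAI2 stayed between 0.829 and 0.998 under all alternatives run. That of NAI1 with PYK10, 0.369 over the 6 arrays, ranged from -0.12 to 0.607 with 1 array left out and was lowest without wild type 1. That of NAI1 with NAI2, 0.093, ranged from -0.462 to 0.399 and was lowest without mutant 1. Of the 18 other named genes in the fit, 0 passed under any alternative and 9 turned sign with 1 array left out, with log2 differences of -0.022 to 0.12 (AT4G15545), -0.042 to 0.24 (AT1G56080), -0.15 to 0.0061 (JAL22), -0.057 to 0.27 (JAL33), -0.15 to 0.16 (JAL34), -0.038 to 0.12 (CRT1b), -0.18 to 0.084 (BGLU33), -0.084 to 0.11 (UGT71C5) and -0.19 to 0.034 (FMA). JAL34 was at -0.0095 with quantile normalization. The cause of these turns was not tested.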
